A study of Mus musculus with 15 samples.

Results

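The transcripts examined were those of 10 genes used as marks of the pyramidal neurons of the hippocampus, 6 for field CA1 (Wfs1, Fibcd1, Pou3f1, Mpped1, Man1a and Spink8) and 4 for field CA3 (Bok, Cdh24, Iyd and Coch). They were taken by symbol out of 55401 genes counted. The choice applied no threshold to a measured value, but it was made with earlier results of these data known. All 10 were found, and all 10 were among the 19536 genes with enough reads to be tested. Hippocampal RNA of 15 female mice aged 18 to 20 months had been sequenced, 1 library per mouse. The Tg2576 mice, labelled Tg2576 +/+, carry human amyloid precursor protein with the Swedish mutation under the prion promoter, and their negative littermates, labelled Tg2576 -/- and called WT here, do not carry it. Mice of each genotype received docosahexaenoic acid (DHA) at 450 mg/kg in sesame oil into the stomach every day for 5 weeks, or the sesame oil alone as vehicle. There were 4 mice in each group but the Tg2576 mice given DHA, of which there were 3.

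Pyramidal neurons are the excitatory output cells of the hippocampus. CA3 neurons receive mossy fibres from the granule cells of the dentate gyrus and send Schaffer collaterals to CA1, and CA1 neurons carry the signal on to the subiculum and cortex. The 2 fields differ in their transcripts, so genes restricted to one of them serve as marks of that field, although several are also used by other brain cells. Wfs1 encodes wolframin, a membrane protein of the endoplasmic reticulum, and is a widely used mark of CA1. Pou3f1 encodes a transcription factor of the POU family, Fibcd1 a membrane receptor that binds chitin, Man1a a Golgi enzyme that trims mannose from N-glycans, Mpped1 a metallophosphoesterase-domain protein and Spink8 a member of a family of serine protease inhibitors. Bok is a relative of the cell death regulator Bcl2, Cdh24 a cadherin, Iyd the deiodinase that recovers iodide from iodotyrosines and Coch the secreted protein cochlin.

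Expression is given as CPM, the read count of a gene scaled to the size of its library with TMM factors, and total counts per mouse ranged from 17372864 to 46596489. Read counts of the members ran from 4732 to 11582 per mouse for Mpped1 down to 28 to 130 for Iyd and 26 to 239 for Coch, so the last pair was measured with the least precision. The App gene, as the check of the genotype, lay between 1572 and 1787 CPM in the 8 WT mice and between 2076 and 2787 CPM in the 7 Tg2576 mice. Its groups did not overlap. In whole tissue, fewer cells of a type and less RNA per cell cannot be told apart, and the libraries hold no information on which cell a read came from. Whether each member was read from its own field could not be checked in these libraries.

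Promoter windows of 250 bases before a transcription start were given by RefSeq (GRCm38.p6) for 8 of the 10 members, in 9 windows, with none for Pou3f1 and Spink8. The stretches below are shown for Wfs1 and Mpped1, the members that passed the test in WT mice, and for Man1a, whose groups also did not overlap there and whose difference had the opposite sign. Each is the part of the window outside the counted exons, in the direction of the gene, and capitals mark the letters GGGCGG (or CCGCCC on the other strand), the GC box bound by SP1.
Wfs1, chr5:36989206-36989232, minus strand: GGGCGGcgagggggcagggccggggcc
Mpped1, upstream start, chr15:83779773-83779981, plus strand: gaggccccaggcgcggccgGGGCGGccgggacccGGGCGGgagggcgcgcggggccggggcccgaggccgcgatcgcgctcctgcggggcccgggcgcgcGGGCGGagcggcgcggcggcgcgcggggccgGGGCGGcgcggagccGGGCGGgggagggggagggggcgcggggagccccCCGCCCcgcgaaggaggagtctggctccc
Mpped1, downstream start, chr15:83784579-83784828, plus strand: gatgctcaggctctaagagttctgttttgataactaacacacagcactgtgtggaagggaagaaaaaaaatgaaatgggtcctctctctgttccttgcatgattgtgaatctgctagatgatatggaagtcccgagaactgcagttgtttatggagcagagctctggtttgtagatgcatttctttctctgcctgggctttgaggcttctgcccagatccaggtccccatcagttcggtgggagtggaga
Man1a, chr10:54075797-54075987, minus strand: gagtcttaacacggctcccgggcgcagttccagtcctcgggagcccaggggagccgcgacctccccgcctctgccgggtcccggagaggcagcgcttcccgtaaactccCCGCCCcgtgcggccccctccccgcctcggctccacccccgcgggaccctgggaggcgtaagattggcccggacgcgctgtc
The Wfs1 stretch is short because 223 of the 250 bases of its window lie in a counted exon. Whole windows were 69.6% G or C for Wfs1, with 23 CpG, and 72.4% for Man1a, with 31 CpG. The upstream Mpped1 window reached 88.8% with 47 CpG, more CpG than 99.8% of all 32851 windows, while the downstream Mpped1 window had 46.8% and 2 CpG. All windows had a median of 52.4% and 6 CpG.

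The whole windows were searched on both strands for 6 short motifs, with overlapping matches counted apart. GC boxes, present in 32.7% of all windows, were found 4 times for Wfs1, 7 times in the upstream and 0 times in the downstream Mpped1 window, 2 times for Man1a, 2 times for Cdh24, 3 times for Coch and 1 time each for Fibcd1 and Bok. The E-box CAGATG, preferred by NeuroD factors and present in 14.4% of windows, occurred once each for Wfs1, Cdh24 and Iyd. The TATA box TATAAA, in 12.4% of windows, was found for Iyd alone, 29 bases before its RefSeq start. That match lies among the 34 bases of the Iyd window that a counted exon covers. The POU octamer ATGCAAAT (1.6% of windows), the cyclic AMP response element TGACGTCA (1.55%) and the nuclear receptor element AGGTCA (14%) had no match in the 9 windows. These matches describe letters only.

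Divided by exonic length, the level in WT vehicle mice was highest for Mpped1, at 58.8 ± 4.36 CPM per kb (SD, n = 4). Next came Wfs1 at 47.2 ± 1.47, Bok at 46.9 ± 7.12 and Fibcd1 at 39.7 ± 4.60 CPM per kb, and the mean ± SD of Bok overlapped that of both its neighbours. Mouse by mouse, however, Bok was above Fibcd1 in all 4 WT vehicle mice, and above Wfs1 in replicate 3 alone. Pou3f1 at 19.5 ± 1.53 and Spink8 at 17.7 ± 10.1 CPM per kb could not be put in order, as the higher gene changed between mice. Lower means were those of Cdh24 at 11.02 ± 2.34, Man1a at 6.10 ± 0.318, Iyd at 1.66 ± 0.167 and Coch at 1.04 ± 0.533 CPM per kb. The mean ± SD of Spink8 also spanned that of Cdh24. Those of Iyd and Coch overlapped, although Iyd was above Coch in each WT vehicle mouse. All other levels in the text are in CPM and compare 1 gene between mice.

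**Figure D1:**
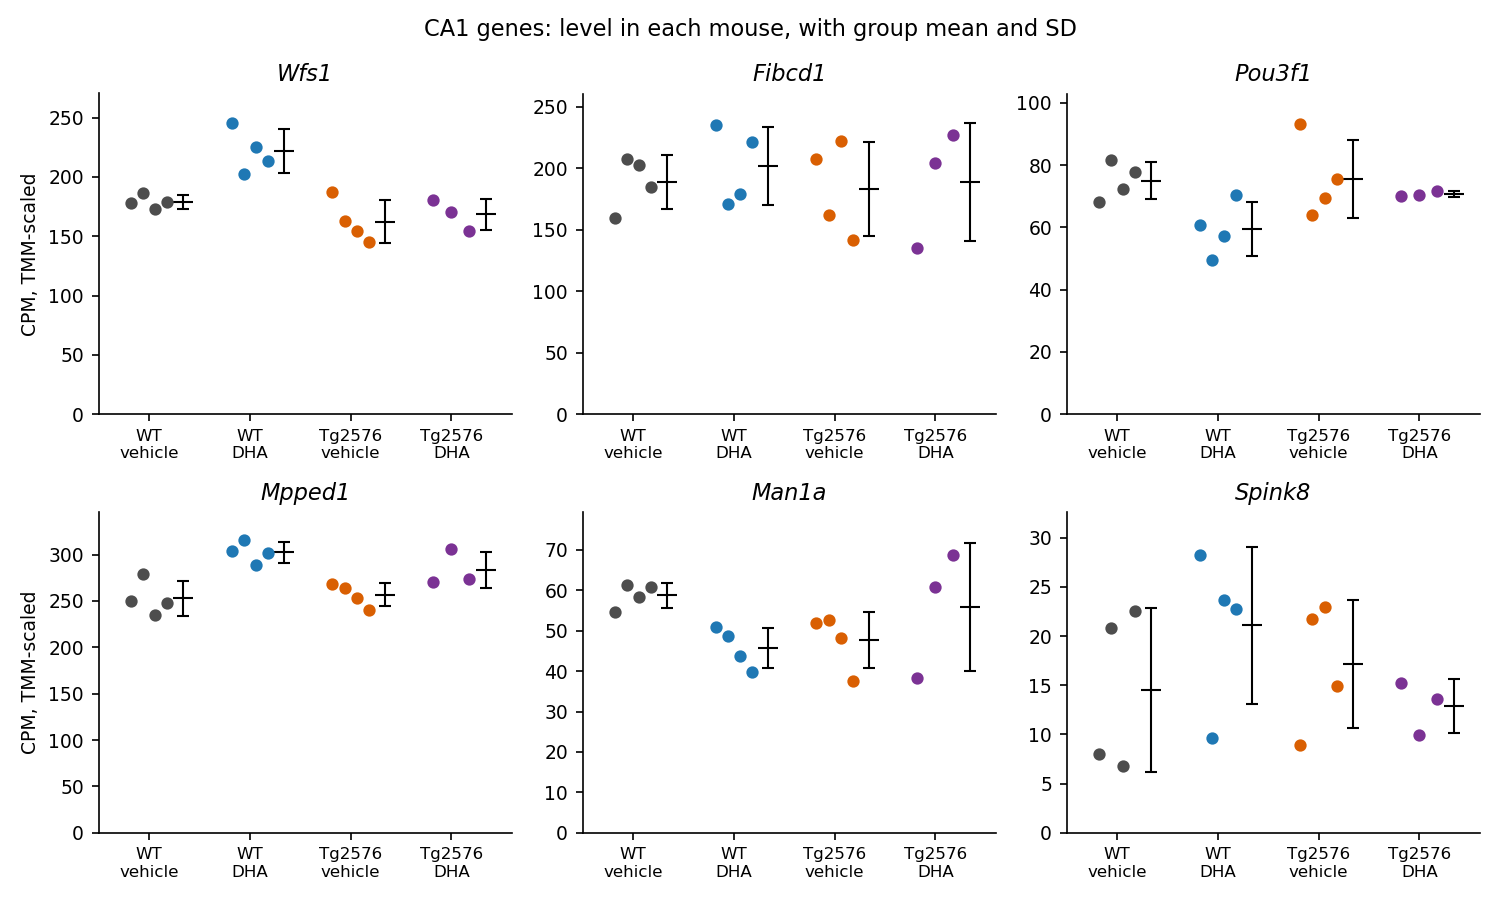
Level of the 6 CA1 genes (TMM-scaled CPM, vertical axis from 0) in each of the 15 mice by group, with the group mean and SD as a black bar beside the points. All 4 WT DHA mice lay above all 4 WT vehicle mice for Wfs1 and Mpped1 and below them for Man1a, and Spink8 was spread over several-fold within groups.

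Wfs1 showed the clearest pattern by group of the 10 genes. Its level was 178, 186, 173 and 179 CPM in the WT vehicle mice. In the WT DHA mice it was 245, 203, 226 and 214 CPM. All 4 WT DHA values were above every value of the other 3 groups. In the Tg2576 vehicle mice Wfs1 stood at 187, 163, 155 and 145 CPM, and in the Tg2576 DHA mice at 181, 170.2 and 155 CPM. The Tg2576 groups overlapped each other and the WT vehicle group.

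In WT mice, Wfs1 rose with DHA by 0.31 on the log2 scale (SE 0.0872, 95% interval 0.13 to 0.49), a fold of 1.24. It passed the study's threshold, an unadjusted p under 0.01, in edgeR's quasi-likelihood test, and the same test gave an adjusted p = 0.542 over all genes. The exact permutation test, two-sided, gave p = 0.0286. Here and below, passing refers to the threshold of 0.01. In Tg2576 mice the difference with DHA was 0.05 (95% interval -0.14 to 0.25, exact permutation p = 0.6). The difference between these 2 responses, tested as an interaction, was -0.26 (SE 0.129, adjusted p = 0.845 by edgeR) and did not pass, so unequal responses of the genotypes were not shown.

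Between the genotypes under DHA, Wfs1 was lower in Tg2576 mice, by -0.40 on the log2 scale (SE 0.0949, 95% interval -0.60 to -0.20), and this passed, with adjusted p = 0.39 by edgeR and exact permutation p = 0.0286. Its adjusted p ranged from 0.0309 with DESeq2 to 0.86 over the alternatives and with each mouse left out. Under vehicle the genotype difference was -0.14 (SE 0.0873, exact permutation p = 0.143). Taken over both treatments it was -0.27 (SE 0.0644), which passed, with adjusted p = 0.0994 by edgeR. The comparison of genotypes under DHA and that of DHA in WT mice share the WT DHA mice, the group with the highest values. Wfs1 passed the threshold under DHA and over both treatments in every alternative fit and with each of the 15 mice left out, and its adjusted p over both treatments ranged from 0.00885 with DESeq2 to 0.242. The rise in WT mice lost the call without WT DHA replicate 1 (0.27, adjusted p = 0.642 by edgeR).

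Mpped1 was the most abundant member and the one that varied least among mice of a group. WT vehicle mice had 249, 279, 235 and 247 CPM, and WT DHA mice 304, 316, 289 and 301 CPM, without overlap. Tg2576 vehicle mice had 269, 264, 253 and 241 CPM. In the Tg2576 DHA mice Mpped1 was 271, 306 and 273 CPM, all above the Tg2576 vehicle values. Values with DHA were thus above those with vehicle in both genotypes.

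Mpped1 rose in WT mice by 0.26 on the log2 scale (SE 0.0745, 95% interval 0.10 to 0.42), which passed, with adjusted p = 0.56 by edgeR and exact permutation p = 0.0286. In Tg2576 mice the difference was 0.14 (SE 0.0803, exact permutation p = 0.0571), and the interaction was -0.12 (SE 0.11). Neither passed. Averaged over both genotypes, the rise with DHA was 0.20 (SE 0.0547, 95% interval 0.09 to 0.32), which passed, with adjusted p = 0.892 by edgeR. Genotype differences were 0.02 under vehicle and -0.10 under DHA (exact permutation p = 0.743 and 0.2). The call in WT mice was lost without WT vehicle replicate 3 (0.23, adjusted p = 0.631 by edgeR) and without WT DHA replicate 2 (0.24, adjusted p = 0.735 by edgeR). The average over both genotypes kept its call in all 8 alternatives and with each mouse left out.

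Pou3f1, the POU factor, had values of 68.1, 81.5, 72.5 and 77.7 CPM in WT vehicle mice. The WT DHA mice had 60.8, 49.4, 57.3 and 70.2 CPM, mostly lower, with 1 mouse inside the vehicle range. Tg2576 vehicle mice ranged from 64.1 to 93.2 CPM and Tg2576 DHA mice from 70.04 to 71.8 CPM. The difference with DHA in WT mice was -0.33 on the log2 scale (SE 0.116, adjusted p = 0.7 by edgeR, exact permutation p = 0.0571) and lay just outside the threshold. It passed in 6 of 9 alternatives, among them DESeq2 (adjusted p = 0.471) and limma-voom (adjusted p = 0.657), so the call depended on the fit. Of the exonic bases of Pou3f1, 330 (8.57%) lie opposite the antisense gene Gm2164, and counting used no strand setting, so reads from that stretch cannot be assigned.

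Man1a had lower values with DHA in WT mice, opposite to Wfs1 and Mpped1. It was 54.6, 61.4, 58.5 and 60.8 CPM in WT vehicle mice. WT DHA mice had 50.8, 48.7, 43.8 and 39.9 CPM, all below the vehicle mice. Tg2576 vehicle mice had 51.9, 52.7, 48.3 and 37.7 CPM, also all below the WT vehicle mice. The Tg2576 DHA mice were split, with 38.2 in replicate 1 against 60.8 and 68.8 CPM in the others.

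On the log2 scale, Man1a differed by -0.36 with DHA in WT mice (SE 0.147) and by -0.30 between genotypes under vehicle (SE 0.147), neither past the threshold, with exact permutation p = 0.0286 for both. With DHA in Tg2576 mice it differed by 0.23 (exact permutation p = 0.486). Its interaction of 0.59 (SE 0.216, 95% interval 0.13 to 1.05) was the one among the 10 members with an unadjusted p under 0.05, and it did not pass (adjusted p = 0.845 by edgeR). Without Tg2576 DHA replicate 1 the interaction was 0.80, the DHA difference in Tg2576 mice 0.45, the genotype difference under DHA 0.50 and the DHA difference in WT mice -0.35, all past the threshold, with adjusted p = 0.364, 0.559, 0.373 and 0.475 by edgeR. A fit of the WT groups alone also let the last pass (adjusted p = 0.226 by edgeR). Leaving out Tg2576 DHA replicate 3 had the opposite effect on the interaction, the DHA difference in Tg2576 mice and the genotype difference under DHA. Their unadjusted p by edgeR were then 0.0671, 0.738 and 0.505. Over all fits these differences reached down to 0.417, 0.056 and 0.112, so they depended on single mice in both directions. An antisense gene, Gm16998, lies opposite 147 exonic bases (1.52%) of Man1a.

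Fibcd1 and Spink8 showed no difference that passed, and both varied widely among mice of a group. Fibcd1 was 159, 208, 203 and 185 CPM in WT vehicle mice, 170.5 to 235 in WT DHA mice, 141 to 222 in Tg2576 vehicle mice and 135 to 227 CPM in Tg2576 DHA mice. Its log2 differences lay between -0.10 and 0.10 in the 4 comparisons of 2 groups, with 95% intervals that lay within -0.48 to 0.45. Spink8 was 7.97, 20.8, 6.79 and 22.6 CPM in WT vehicle mice, a split into low and high mice. WT DHA mice ranged from 9.68 to 28.3, Tg2576 vehicle mice from 8.97 to 23.0 and Tg2576 DHA mice from 9.90 to 15.2 CPM. Its interval for DHA in WT mice, -0.41 to 1.49, left room for a large change in either direction.

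**Figure D2:**
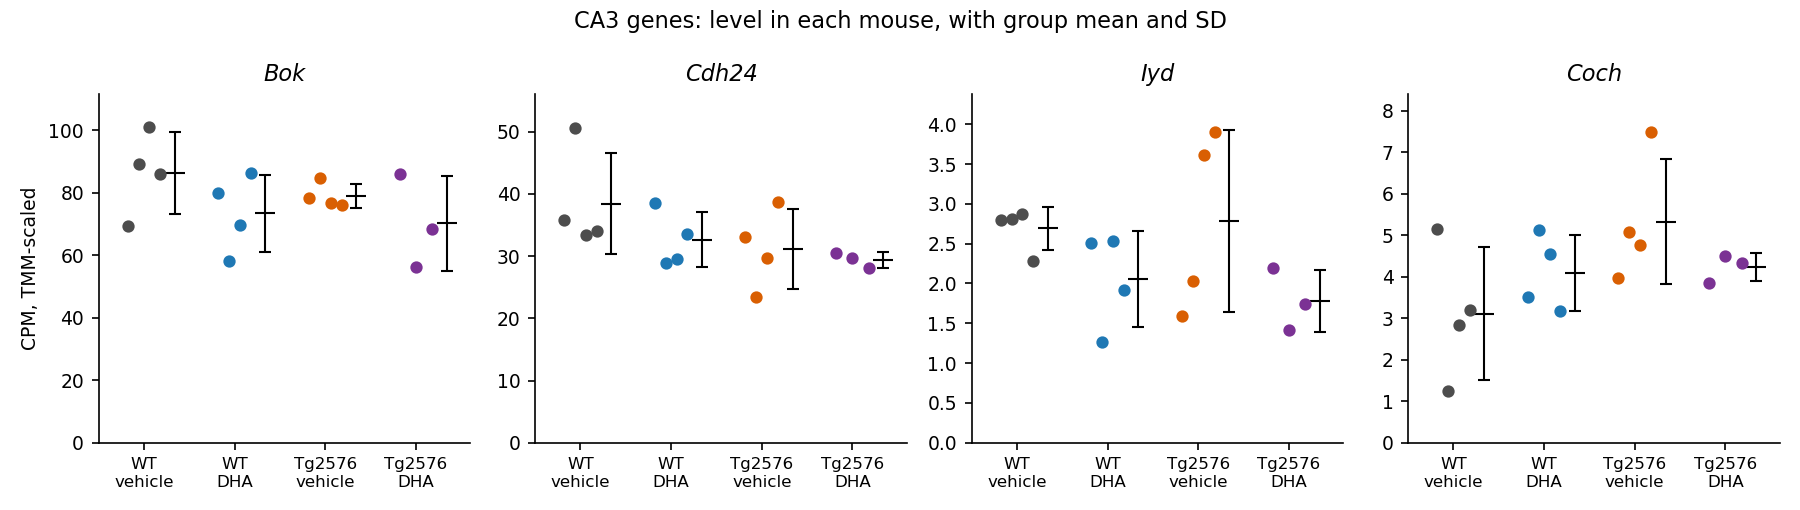
Level of the 4 CA3 genes (TMM-scaled CPM, vertical axis from 0) in each mouse by group, with the group mean and SD as a black bar beside the points. In the 4 comparisons of 2 groups the groups overlapped for every gene, and Iyd and Coch stayed below 8 CPM in every mouse.

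No CA3 gene passed the threshold in any of the 7 comparisons. In the 4 comparisons of 2 groups, no CA3 gene had groups without overlap. The pair of WT vehicle and Tg2576 DHA mice, in which Cdh24 and Iyd did not overlap, was not among these. For that pair the share of all genes without overlap was not computed, so nothing is read from it. Bok was 69.4, 89.0, 101 and 85.9 CPM in WT vehicle mice and ranged from 58.0 to 86.2 in WT DHA mice, from 76.1 to 84.6 in Tg2576 vehicle mice and from 56.1 to 86.1 CPM in Tg2576 DHA mice. Under DHA its log2 difference was -0.23 for WT and -0.17 for Tg2576 mice (exact permutation p = 0.229 and 0.257). The CA3 cadherin Cdh24 had 35.8, 50.6, 33.5 and 33.97 CPM in WT vehicle mice, with replicate 2 apart from the rest. Its values were 29.0 to 38.6 CPM in WT DHA mice, 23.4 to 38.7 in Tg2576 vehicle mice and 28.0 to 30.5 in Tg2576 DHA mice. The genotype difference of Cdh24 under vehicle was -0.30 (SE 0.152, exact permutation p = 0.229). Over all fits it ranged from -0.404 to -0.132, and without WT vehicle replicate 2 its unadjusted p was 0.356 by edgeR.

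Iyd was expressed at 2.80, 2.81, 2.87 and 2.29 CPM in WT vehicle mice. WT DHA mice had 1.27 to 2.54, Tg2576 vehicle mice 1.59 to 3.90 and Tg2576 DHA mice 1.42 to 2.20 CPM. Over both genotypes the log2 difference with DHA was -0.52 (SE 0.217, adjusted p = 1 by edgeR), outside the threshold. Coch was the one member with a higher value in Tg2576 mice under vehicle at an unadjusted p under 0.05. It was 5.15, 1.26, 2.84 and 3.19 CPM in WT vehicle mice and 3.97, 5.07, 4.77 and 7.48 CPM in Tg2576 vehicle mice, and the groups overlapped. The log2 difference was 0.76 (SE 0.305, adjusted p = 0.384 by edgeR, exact permutation p = 0.114). It passed the threshold without WT vehicle replicate 1 (1.12, adjusted p = 0.423 by edgeR) and with no other mouse left out. Without Tg2576 vehicle replicate 4 the unadjusted p was 0.0945 by edgeR, and over all fits the difference ranged from 0.523 to 1.118. Under DHA the groups differed by 0.04 (exact permutation p = 0.771), with values of 3.17 to 5.13 CPM in WT and 3.85 to 4.49 CPM in Tg2576 mice.

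**Figure D3:**
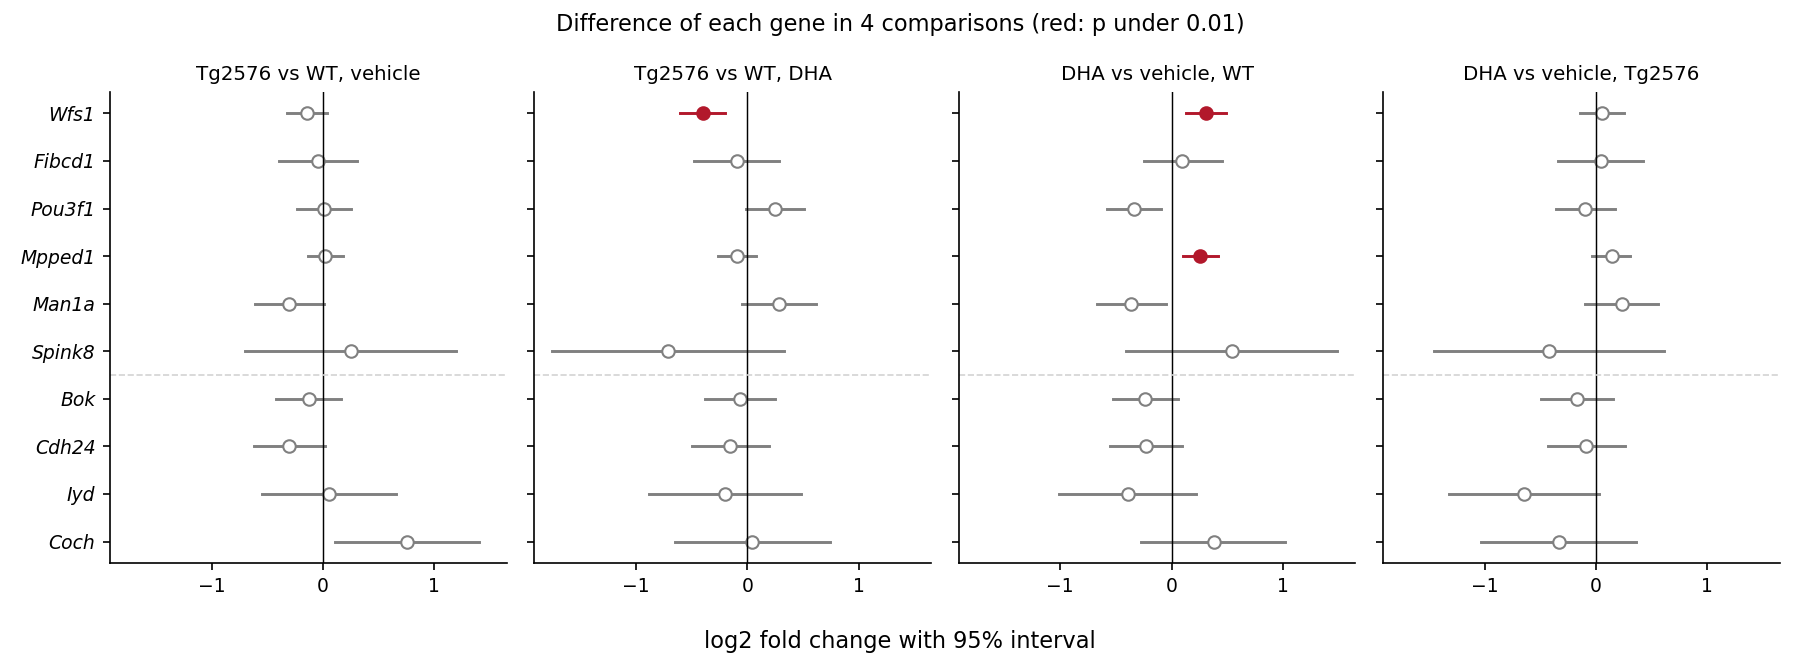
Log2 fold change of each gene (horizontal axis, with 95% interval as a line) in the 4 comparisons of 2 groups, CA1 genes above the dashed line and CA3 genes below it, red where p was under 0.01. Wfs1 and Mpped1 were above 0 with DHA in WT mice and Wfs1 was below 0 between genotypes under DHA. Intervals that excluded 0 without a call were those of Pou3f1 and Man1a, below 0 with DHA in WT mice, and of Coch, above 0 between genotypes under vehicle. All other intervals crossed 0.

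Counted over the list, few members passed, and the counts were set beside all genes tested. Under vehicle, 0 of 10 members passed between genotypes by edgeR, DESeq2 or limma-voom, and 1 had an unadjusted p under 0.05 with each tool, where 3.09% of all genes passed at 0.01 and 10.7% were under 0.05 by edgeR. Under DHA, 1 of 10 passed between genotypes, against 1.75% of all genes. With DHA in WT mice 2 of 10 passed, against 1.38% of all genes, and 4 had p under 0.05, against 5.92% of all genes. With DHA in Tg2576 mice 0 of 10 passed by each of the 3 tools, against 0.353% of all genes, and at p under 0.05 edgeR gave 0 (3.16% of all genes) and DESeq2 1. The interaction gave 0 of 10 by each tool, against 0.829% of all genes, with 1 member under 0.05 by edgeR (5.12% of all genes) and 2 by DESeq2. Over both treatments 1 of 10 passed for genotype (3.85% of all genes), and over both genotypes 1 of 10 for DHA (0.870% of all genes). By edgeR on all 15 mice, no member had an adjusted p under 0.05 in any comparison. Among the alternatives Wfs1 did, between genotypes under DHA and over both treatments with DESeq2, and over both treatments without Tg2576 vehicle replicate 1 (adjusted p = 0.0386 by edgeR).

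Groups without overlap were found for Man1a between genotypes under vehicle (5.16% of all genes did not overlap), for Wfs1 between genotypes under DHA (8.57% of all genes), for Wfs1, Mpped1 and Man1a with DHA in WT mice (5.02%) and for Mpped1 with DHA in Tg2576 mice (3.21%). The exact permutation test, two-sided, gave p = 0.0286 for each of these except the last, which had p = 0.0571, and 0.0286 is the smallest that these group sizes allow. The median log2 difference of the 6 CA1 genes with DHA in WT mice was 0.18, made up of values from -0.36 for Man1a to 0.54 for Spink8. That of the 4 CA3 genes was -0.23, from -0.40 for Iyd to 0.38 for Coch, and the median over all genes was -0.01. With DHA in Tg2576 mice the medians were 0.05 for CA1 and -0.25 for CA3 genes, where all 4 CA3 values were negative. Between genotypes they were -0.02 and -0.04 under vehicle and -0.10 and -0.11 under DHA. Within each field, genes of both signs were present in 6 of the 7 comparisons for CA3 and in all 7 for CA1.

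**Figure D4:**
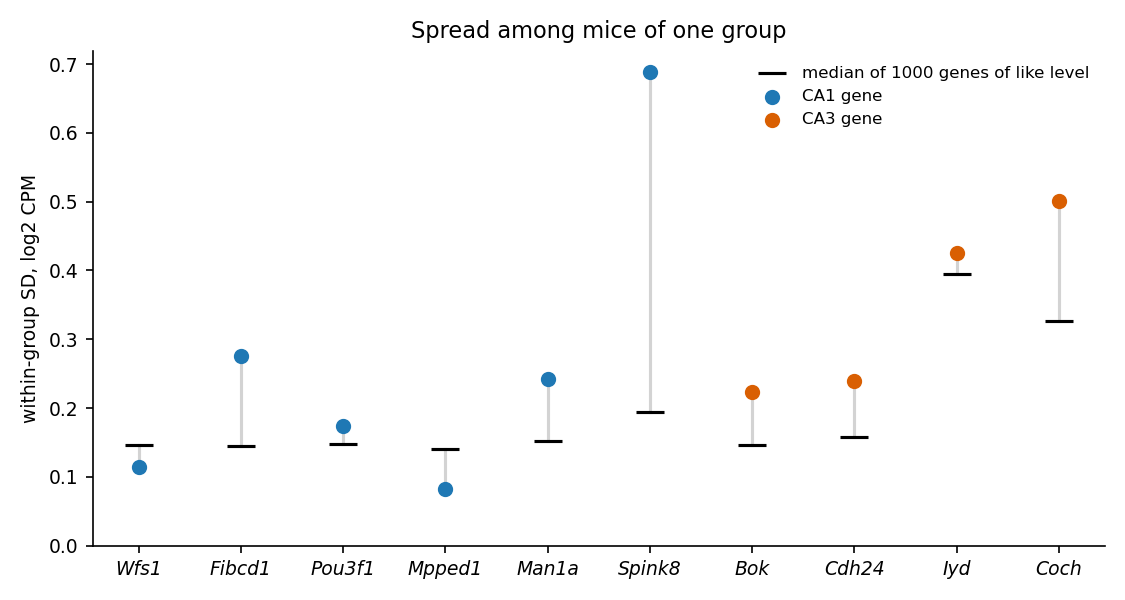
SD of log2 CPM within groups (vertical axis from 0) for each gene, blue for CA1 and orange for CA3, with a black bar at the median of the 1000 tested genes of most similar mean level. Mpped1 and Wfs1 lie below their bars, and Spink8, Fibcd1 and Coch well above theirs.

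The members differed greatly in how steady they were among mice of a group. Mpped1 had a within-group SD of 0.083 on the log2 scale and Wfs1 one of 0.114, and 11.9% and 29.5% of the 1000 genes of like level varied less. Pou3f1 followed with 0.174. Bok, Cdh24, Man1a and Fibcd1 lay between 0.223 and 0.275, with 84.6% to 93.4% of like genes varying less. Spink8, at 0.689, varied more than 99.2% of like genes, which had a median of 0.194. Iyd (0.425) and Coch (0.501) were expressed at levels where the median of like genes was already 0.395 and 0.327. Of like genes, 58.8% varied less than Iyd and 84.6% less than Coch. Differences between groups accounted for 76.7% of the variation of Wfs1 and 70.3% of that of Mpped1 among the 15 mice, and for 5.51% of that of Fibcd1.

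**Figure D5:**
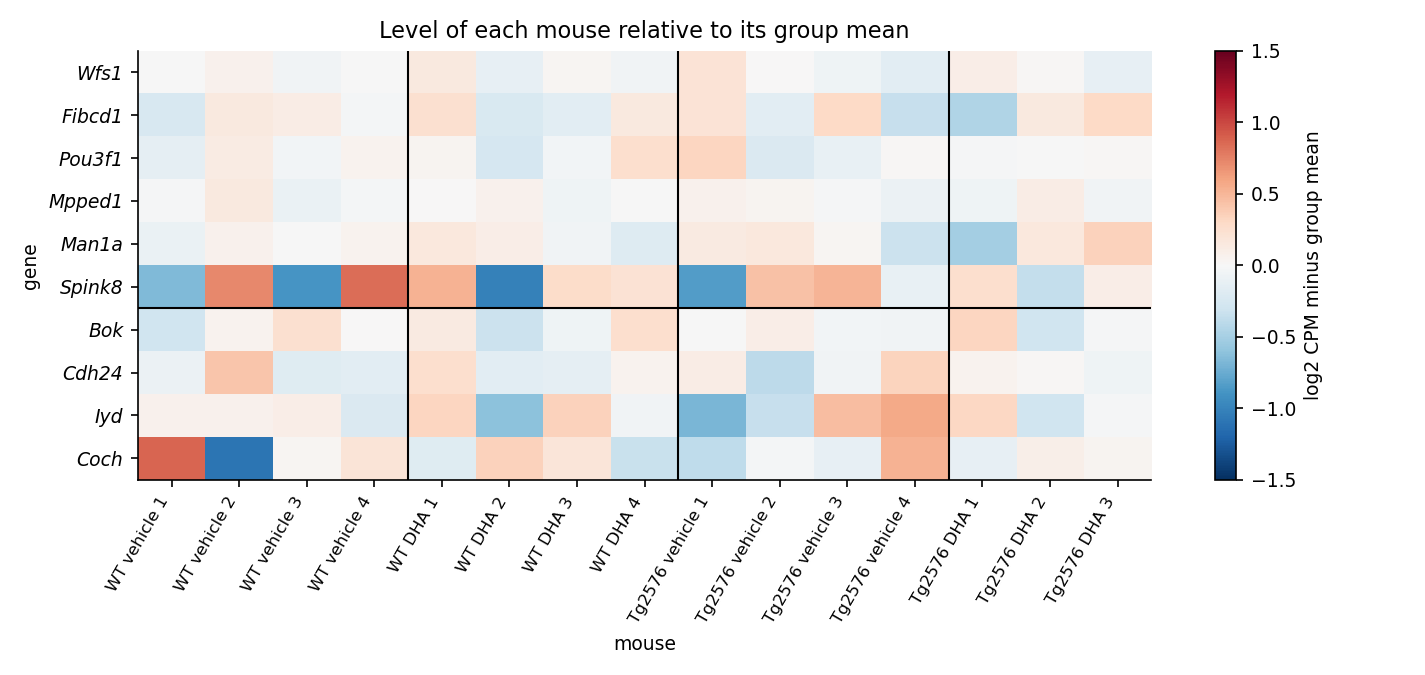
Log2 CPM of each gene (rows, CA1 above the line and CA3 below it) in each mouse (columns, groups separated by lines) minus the mean of its group, red above and blue below. Spink8 and Coch carry the deepest colours, WT vehicle replicate 2 and WT DHA replicate 1 were above their group means for all 6 CA1 genes, and WT vehicle replicate 1 was below for all 6. No mouse was on one side for all 4 CA3 genes.

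Pairs of genes of one field had mostly low correlations from mouse to mouse. After the group means were removed, the 15 pairs of CA1 genes had a median Pearson r of 0.145 over 15 mice, with 13 pairs positive, and the 6 pairs of CA3 genes a median of 0.099. The 24 pairs of a CA1 with a CA3 gene had a median of -0.150. Of the 45 pairs, 5 had an exact permutation p under 0.05 and 0 passed after adjustment over the pairs. The lowest p was that of Mpped1 with Iyd (r = -0.59, exact p = 0.012, adjusted p = 0.314; Spearman's rho = -0.62, exact p = 0.018, adjusted p = 0.334), and r was -0.84 without the 2 mice farthest out in Mpped1. Fibcd1 and Man1a had the highest r, 0.69 (exact p = 0.0481, adjusted p = 0.417), with rho = 0.53 (exact p = 0.123, adjusted p = 0.555). The r of Fibcd1 and Man1a fell to 0.08 without the 2 mice farthest out in Fibcd1. Leaving out such mice also narrows the range of the gene, so neither change of r shows what it rested on. All values of a mouse share its library, and the libraries carried 1 common run and lane label.

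Each field was also summed up by the mean of its genes. The mean log2 CPM of the CA1 genes exceeded that of the CA3 genes by 2.16 in Tg2576 vehicle replicate 4 up to 3.15 in WT vehicle replicate 2. This difference depends on which genes stand for a field and was not tested. Outside the list, the genes whose deviations among mice were most like the CA1 mean were Ppp3ca, a catalytic subunit of calcineurin (r = 0.92 over 15 mice), Ythdf1 (0.92), Lmo3 (0.89), Actr3 (0.89) and Gm23136 (0.89). The last was present at 0.362 CPM only. For the CA3 mean they were Sec1 (0.91), Taf15 (0.91), Rpl30 (0.91), Cc2d1b (0.90) and Trim17 (0.88). These are the highest of 19536 correlations and are given as a description. Each mean was unweighted, so the genes with the widest spread weighed most in it. For CA1 this was Spink8, with a within-group SD of 0.689 against at most 0.275 for the other CA1 genes. For CA3 they were Coch and Iyd (0.501 and 0.425), against 0.223 for Bok and 0.240 for Cdh24. Likeness without these genes was not computed.

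Genes of the neighbouring hippocampal cells were read from further lists. Of 7 other CA3 genes, 2 were lower in Tg2576 mice under vehicle: Cpne4, a copine (log2 difference -0.42, SE 0.0983, adjusted p = 0.166 by edgeR), and Nectin3, an adhesion molecule (-0.39, adjusted p = 0.31 by edgeR). The median of that list was -0.27 there, 0.04 between genotypes under DHA, -0.12 with DHA in WT and 0.11 with DHA in Tg2576 mice, with 0 calls in these 3 comparisons. Of 6 CA2 genes 0 passed in the 4 comparisons, with medians from -0.06 to 0.01. Of 6 dentate granule cell genes, Prox1, the granule cell transcription factor (-0.46, adjusted p = 0.198 by edgeR), and the channel gene Trpc6 (-0.54, adjusted p = 0.276 by edgeR) were lower between genotypes under vehicle. Prox1 was also lower with DHA in WT mice (-0.37, adjusted p = 0.669 by edgeR), where Wfs1 and Mpped1 rose. The dentate medians were -0.36, -0.08, -0.38 and -0.07 in the 4 comparisons in the same order.

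Among 6 genes shared by excitatory and pyramidal neurons, Zbtb20 was lower between genotypes under vehicle (-0.63, adjusted p = 0.304 by edgeR) and the vesicular glutamate transporter Slc17a7 was lower under DHA (-0.32, adjusted p = 0.56 by edgeR), and 0 passed with DHA in either genotype. The medians lay between -0.14 and 0.00. The 5 subiculum genes had 0 calls, and their medians were -0.12 and 0.55 between genotypes under vehicle and DHA, and -0.20 and 0.50 with DHA in WT and Tg2576 mice. The mean deviations of the dentate genes among mice had r = 0.80 with those of the CA1 genes, and interneuron genes had r = 0.62 with the CA3 genes, over 15 mice that share their libraries. The other CA3 genes had r = -0.57 with the 4 CA3 members. The means of the 2 CA3 lists therefore did not vary alike among these mice. The mean of the CA3 members weighed Coch and Iyd most, the pair measured with the least precision, and that of the CA1 genes weighed Spink8 most. Whether these r would hold without those genes was not tested.

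Transcripts of tissue beyond the pyramidal layers were present at unequal levels. The summed level of 6 choroid plexus genes, led by Ttr, ran from 89.0 to 3716 CPM in WT vehicle, 61.0 to 5821 in WT DHA, 141 to 3160 in Tg2576 vehicle and 3096 to 5148 CPM in Tg2576 DHA mice. It was thus high in all 3 Tg2576 DHA mice, and the median log2 difference was 1.05 with DHA in Tg2576 mice and 1.25 between genotypes under DHA, with 0 of 6 called by edgeR. In the other comparisons the medians were -0.24 between genotypes under vehicle and -0.18 with DHA in WT mice, again with 0 called. The part of the choroid plexus in the members' differences was not tested. Beside the rise of Wfs1 and Mpped1 in WT mice, summed levels of the 7 neocortex genes were 281 to 341 CPM under vehicle and 281 to 364 CPM under DHA. Those of the 6 striatum genes were 65.4 to 108 and 80.5 to 130 CPM. Both lists overlapped between the groups, had 0 calls in the 4 comparisons, and had medians from -0.04 to 0.09 and from -0.09 to 0.14. With DHA in WT mice the medians were 0.08 for neocortex genes, 5 of 7 positive, and 0.14 for striatum genes, 5 of 6 positive. The part of these tissues in the rise of Wfs1 and Mpped1 was not tested.

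In the remaining lists most calls were between genotypes. Gfap, the astrocyte filament gene, was higher in Tg2576 mice under vehicle (1.02, adjusted p = 0.0766 by edgeR) and under DHA (1.01, adjusted p = 0.253 by edgeR), alone among 5 astrocyte genes. Of 5 microglia genes 4 were higher under DHA, among them Csf1r (0.42, adjusted p = 0.478 by edgeR), and 0 under vehicle by edgeR. Of 6 interneuron genes, Gad1 (-0.28, adjusted p = 0.261 by edgeR) and Gad2 (-0.42, adjusted p = 0.323 by edgeR) were lower under vehicle. Of 7 thalamus genes, Prkcd was lower between genotypes under DHA (-0.58, adjusted p = 0.527 by edgeR) and with DHA in Tg2576 mice (-0.69, adjusted p = 0.999 by edgeR). Mobp, of 5 oligodendrocyte genes, was lower with DHA in Tg2576 mice (-0.46, adjusted p = 0.999 by edgeR), and Ly6c1, of 4 endothelial genes, was higher between genotypes under vehicle (0.58, adjusted p = 0.25 by edgeR). In the same order of the 4 comparisons, medians were -0.07, 0.06, -0.07 and 0.08 for astrocyte, 0.16, 0.49, -0.15 and 0.19 for microglia, and -0.29, -0.03, -0.06 and -0.04 for interneuron genes. They were 0.05, -0.07, 0.01 and -0.24 for thalamus, -0.14, -0.15, -0.21 and -0.19 for oligodendrocyte, and 0.14, -0.08, -0.06 and -0.22 for endothelial genes. The part of these cells in the members' differences was not tested.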

How the data were processed

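The hippocampal RNA of 15 mice was sequenced and the authors deposited 1 file of raw read counts per mouse. Per the file headers, counts of reads over exons of 55401 genes were made with featureCounts 1.6.0 on GENCODE vM25, without a strand, multi-mapping or paired-end option, and the submitters' notes name GRCm38 and STAR 2.6.1c. The library kit is given differently in the labels (SMARTER) and in the study's methods (TruSeq Stranded). Groups came from the labels. The labels number the mice and give no litter, so p-values measure the spread between these samples. Total counts per mouse are 17372864 to 46596489, and no pair of libraries of a group agreed within sampling noise (chi-square per degree of freedom at least 13.9).

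Symbols were matched through GENCODE M21 for 55141 genes. With R 4.3.3 and edgeR 4.0.16, filterByExpr (minimum count 10) kept 19536 genes, and a robust quasi-likelihood fit of all 15 mice with TMM factors (0.961 to 1.03) and 1 coefficient for each group was used for 7 comparisons, all two-sided. Calls are at an unadjusted p of 0.01, the study's threshold, and p-values adjusted after Benjamini-Hochberg over all genes tested are given beside them. Standard errors are the log2 fold change over the square root of F. CPM are TMM-scaled, and log2 CPM use a prior count of 2. Single genes were compared by exact permutation, and pairs of members by correlation with 82944 orders within groups (Python 3.11.15). On data simulated for the comparison of DHA in WT mice, 200 of 19202 genes changed by 1 on the log2 scale were called in 89% of cases and, in a run on 19198 genes, those changed by 0.3 in 27.5%.

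The members and lists were chosen with earlier results of these data known. Named genes are all 10 members, the 5 genes most like each field's mean, at most 2 called genes per further list and comparison, and App. The values of 1 listed gene are not reported here. The further lists are other CA3, CA2, excitatory and pyramidal neuron, dentate, subiculum, neocortex, thalamus, striatum, choroid plexus, interneuron, oligodendrocyte, astrocyte, microglia and endothelial genes. Alternatives were DESeq2 1.42.0, limma-voom (limma 3.58.1), no TMM factors, RLE factors, no filter, at least 10 counts in every mouse, only the groups compared, no robust option, a replicate block and each mouse left out.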

Additional observations from a re-analysis of the deposited data

Results flagged for a closer look

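In each group of 4 mice, the gap of the highest or lowest mouse to its neighbour was compared with the range of the group (Dixon's test at 95%), and 2 of 30 sets of values stood out, where chance flags about 1 in 20. Cdh24 was 50.63 CPM in WT vehicle replicate 2 and 33.5 to 35.8 CPM in the other WT vehicle mice. Iyd was 2.287 CPM in WT vehicle replicate 4 and 2.80 to 2.87 CPM in the others. The response of Man1a to DHA differed between genotypes by 0.59 on the log2 scale at an unadjusted p under 0.05 (adjusted p = 0.845 by edgeR). Its group means were 58.8 and 45.8 CPM in WT vehicle and WT DHA mice and 47.7 and 55.9 CPM in Tg2576 vehicle and Tg2576 DHA mice. The cause was not tested.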

How the results depend on the processing

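Of the 5 calls of members, Wfs1 between genotypes (under DHA and over both treatments) and Mpped1 with DHA over both genotypes held in every alternative and with each mouse left out, while the calls with DHA in WT mice held in all 9 alternatives and were lost without 1 of 15 mice for Wfs1 and 2 of 15 for Mpped1. Fewer samples are a part of each fit without a mouse, and the causes of the other changes were not tested. The number of members called with DHA in WT mice was 4 in the fit of only the groups compared and 1 to 3 with a mouse left out. With DHA over both genotypes it was 2 with DESeq2, 2 with limma-voom and 2 with RLE factors, Wfs1 passing beside Mpped1 in each, and 1 to 3 with a mouse left out. The interaction gave 1 without the filter and 0 to 1 with a mouse left out. With a mouse left out, counts were 0 to 1 for genotype under vehicle, 1 to 2 for genotype under DHA and 0 to 1 for DHA in Tg2576 mice, and always 1 for genotype over both treatments. The counts from alternative fits are not set beside the share of all genes called in the same fit. Where that share was checked over fits and comparisons, it moved 25 times and stayed the same 136 times. Whether the changes in these counts are particular to the members was not tested. No correlation passed after adjustment under either alternative.

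Signs changed for small differences only. With limma-voom, the genotype difference under vehicle was -0.00361 for Pou3f1 and -0.0187 for Iyd. With a mouse left out, ranges that crossed 0 were, under vehicle, -0.147 to 0.0808 for Fibcd1, -0.106 to 0.0817 for Pou3f1, -0.0102 to 0.0848 for Mpped1 and -0.135 to 0.238 for Iyd. Between genotypes under DHA they were -0.248 to 0.0988 for Fibcd1, -0.236 to 0.0745 for Bok and -0.0597 to 0.176 for Coch. With DHA in Tg2576 mice they were -0.000555 to 0.129 for Wfs1, -0.108 to 0.24 for Fibcd1, -0.164 to 0.0229 for Pou3f1 and -0.202 to 0.0321 for Cdh24.

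Replicate numbers are in the labels of all groups, but same-numbered mice did not deviate together (r from -0.244 to 0.213 over 21 pairs, 4 over 0.1). With a replicate block 3 members were called with DHA in WT mice, Pou3f1 included (-0.35, adjusted p = 0.607 by edgeR), and the block changed no other count of members called. Depth limits Iyd and Coch most, at no more than 130 and 239 reads per mouse.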
